A study of Mus musculus with 2 samples.

Results

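Marrow stromal cells, named here for the genes Adipoq and Cxcl12, were examined in droplet single-cell RNA sequencing of mouse knees. Cells were selected on measured values, namely when at least 3 of the 6 genes Adipoq, Lepr, Cxcl12, Esm1, Hp and Lpl were above 0 and either Adipoq or Lepr was among them. The rule found 246 of 6243 cells, of which 155 of 4903 came from the control library and 91 of 1340 from the Stat3KO library. The series compares knees with and without Stat3 in chondrocytes, the cells of cartilage. The control mice were Stat3fl/fl, with both Stat3 alleles flanked by loxP sites, and the Stat3KO mice were Acan-Cre+/Cre;Stat3fl/fl. Both groups therefore carried the floxed alleles, and all mice were female and 1 month old. The Cre was driven from the aggrecan locus Acan, a gene of chondrocytes, and in the study's methods it is a tamoxifen-inducible form with tamoxifen given to pups at postnatal days 2 and 3. Knees of several mice per genotype were pooled, and live cells without the blood markers CD45 and Ter119 and the endothelial marker CD31 were sorted, so only stromal cells that passed this gate could be selected.

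Adipoq and Lepr mark the reticular stroma of bone marrow, a net of mesenchymal cells around the sinusoids. These cells are known for secreting the chemokine Cxcl12 and the cytokine Kitl, which retain and maintain blood stem and progenitor cells, and for giving rise to osteoblasts and marrow adipocytes. Cxcl12 is bound by Cxcr4 on blood cells. Members of the Ebf and Foxc families of transcription factors are known to keep the identity of this stroma, while Pparg and the C/EBP factors direct fat formation and Runx2 and Sp7 direct bone formation.

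Each genotype had 1 library. The variation among animals is therefore unknown, none of the differences has a replicate check, and no test was made. Shares of cells carry 95% intervals by the exact Clopper-Pearson method, which cover counting error only. Expression is given as CPM, the summed estimated UMIs (unique molecular identifiers) of a gene in the cells named, scaled to a total of 1000000, and a log2 ratio is taken on CPM + 1. A gene is called higher or lower when it differs at least 2-fold. The selected control cells held 589417 estimated UMIs and the selected Stat3KO cells 544073, with medians of 3055 and 5767 per cell and of 1627 and 2159 genes. Their median mitochondrial share was 2.22% and 3.90%. The 2 libraries shared 2 cell barcodes. Globin transcripts were found in 75.7% of all control cells and in 8.43% of all Stat3KO cells, and in 96 of 155 (61.9%) and 7 of 91 (7.69%) of the selected cells, so cells with globin were left out as an alternative. Doublet calling marked 7 and 1 of the selected cells, but it marked only 0.149% of the Stat3KO library and cannot be relied on there.

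The selected cells made up 3.16% (2.69 to 3.69%) of the control and 6.79% (5.50 to 8.27%) of the Stat3KO library. The share was 2.15 times as large in Stat3KO, and the difference was 3.63 percentage points (2.24 to 5.18). Among cells with no globin transcript the shares were 59 of 1190 (4.96%, 3.80 to 6.35%) and 84 of 1227 (6.85%, 5.50 to 8.41%), a difference of 1.89 points with overlapping intervals. With cells thinned to 1000 UMIs, and cells with fewer left out, the shares were 117 of 4551 (2.57%) and 64 of 1134 (5.64%). These are shares of sorted cells, and a larger number of stromal cells cannot be told apart from fewer cells of other kinds.

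All 6 selecting genes were detected together in 90 control and 55 Stat3KO cells, 5 of them in 27 and 17, 4 in 15 and 11, and exactly 3 in 23 and 8. Adipoq and Lepr were both above 0 in 113 control cells (72.9%) and 64 Stat3KO cells (70.3%). Adipoq without Lepr was found in 13 and 11 cells and Lepr without Adipoq in 29 and 16. Just inside the rule, cells with exactly 3 of the genes had 719 CPM of Cxcl12 in control and 1373 in Stat3KO. Just outside it, cells with 2 of the genes including Adipoq or Lepr (69 and 36 cells) had 165 and 698 CPM. The few cells with 3 or 4 of the genes but neither Adipoq nor Lepr (9 and 18 cells) had 3473 and 7720 CPM of Cxcl12, more than the cells just inside.

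The selecting genes are given only as a description, because they chose the cells. Cxcl12 reached 9902 CPM in control and 11227 CPM in Stat3KO cells, against 48.7 and 246 CPM in all other cells. Adipoq, which encodes the hormone adiponectin, stood at 1287 and 1415 CPM, and in the other cells at 0.251 and 0.861 CPM. Lpl, the lipase that releases fatty acids from lipoproteins, stood at 3940 and 3481 CPM. Hp (haptoglobin, which binds free haemoglobin) had 1337 and 2183 CPM, Lepr (the leptin receptor) 930.1 and 580.3 CPM, and Esm1 (endocan, a proteoglycan) 785 and 644 CPM. None of the 6 differed 2-fold between the libraries, and the largest log2 ratio was 0.71 for Hp.

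**Figure D1:**
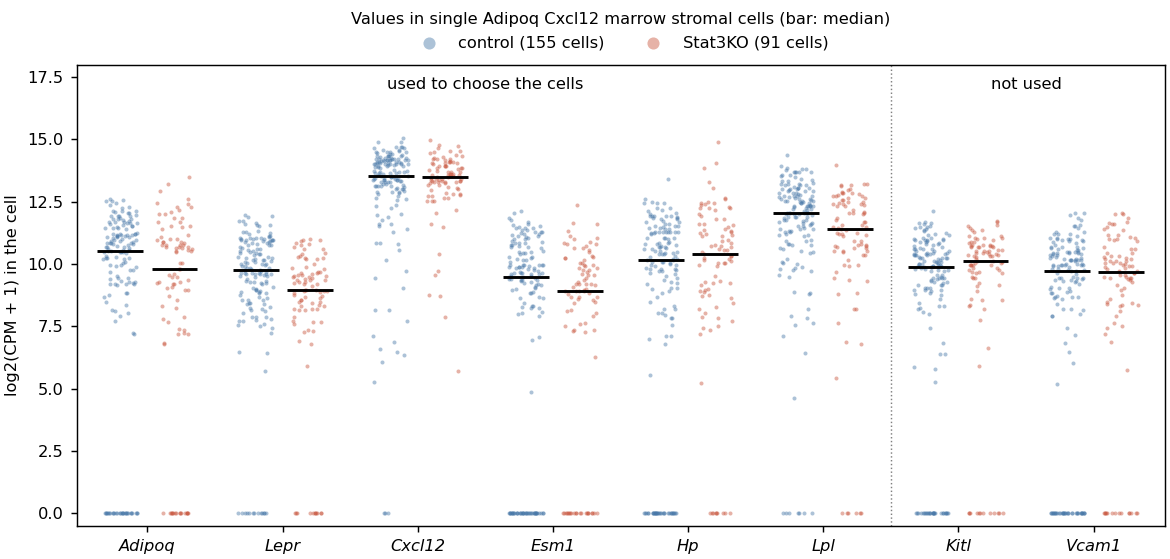
Expression in single selected cells, as log2(CPM + 1) on the vertical axis, with 1 point per cell, control cells (blue, n = 155) beside Stat3KO cells (red, n = 91) and a bar at the median. The 6 selecting genes stand left of the dotted line and Kitl and Vcam1, which the rule did not use, right of it. The cells of the 2 libraries overlap in each gene.

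The label was checked against 25 other marrow stromal genes that the rule did not read. Of these, 23 passed a filter on low values, at least 50 CPM and detection in 10% of the selected cells in both libraries. Of the 23, 21 were at least 2-fold above all other cells in both libraries. Over all genes that could be compared this way, 381 of 2812 (13.5%) were. Because such genes are co-expressed with the selecting genes, these numbers describe the cells and are no test of their identity. The exceptions were Pdgfra, a growth factor receptor of many mesenchymal cells (3.47-fold in the control and 1.53-fold in Stat3KO), and the complement inhibitor Serping1 (8.92-fold and 1.71-fold). Clustering of all cells without the 6 selecting genes placed 215 of the 246 cells (87.4%) in 1 of 21 clusters, in which they were 78.2% of 275 cells, and 13 more in another cluster. The label fitted cells with Lepr but no Adipoq less well. They held a median of 9 (control) and 11 (Stat3KO) of the 25 genes, against 17 and 18 in cells with both. Their Cxcl12 was at 1879 and 7116 CPM, against 12791 and 12601 CPM. A list of 21 osteogenic genes summed to 76042.5 and 35879 CPM in them, against 22225 and 10861 CPM.

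Of the 15 most enriched genes, 9 were not used by the rule. Il1rn, the antagonist of the interleukin-1 receptor, had 278 CPM in control and 505 CPM in Stat3KO cells, 225-fold and 112-fold above the other cells. It was present in under 50% of the cells of each library (45.8% and 46.2%) and was listed at 0 in the osteoblast-lineage, mural and Pi16 Dpp4 cells of both. Gdpd2, a phosphodiesterase, was enriched 202-fold and 63.4-fold. Trf, the iron carrier transferrin, was enriched 148-fold and 50.4-fold, and the adhesion molecule Vcam1 83.2-fold and 39.2-fold. Agt, the precursor of angiotensin, was enriched 64-fold and 34.1-fold. The kininogens Kng1 and Kng2 and the serpins Serpina3g and Serpina3f ranked among the 15 most enriched genes, but each has close copies between which reads can be split, so their single values are uncertain.

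The same genes were compared with 3 other kinds of mesenchymal cells, each chosen by markers of its own and without the cells selected here. These were 181 control and 119 Stat3KO osteoblast-lineage cells (at least 4 of Sp7, Ibsp, Alpl, Bglap, Runx2 and Col1a1, with Sp7 or Ibsp), 74 and 42 mural cells, which wrap vessels (at least 3 of Rgs5, Acta2, Myh11, Kcnj8, Abcc9 and Notch3, with Rgs5 or Myh11), and 147 and 53 fibroblasts (at least 3 of Pi16, Dpp4, Cd248, Sema3c, Clec3b and Ly6c1, with Pi16 or Dpp4). In both libraries 110 of 2812 genes (3.91%) were at least 2-fold higher in the selected cells than in each of the 3, and 17 of the 23 marrow stromal genes were among them. Kitl had 823 and 1111 CPM in the selected cells, 247 and 269 CPM in mural cells and 22.6 and 36 CPM in osteoblast-lineage cells. Vcam1 had 766 and 1060 CPM, and at most 57.5 CPM in any of the 3. The transcription factor Ebf3 had 455 and 380.1 CPM, with mural cells at 75.4 and 77.5 CPM. Ebf1 did not separate the kinds in this way, as it stood at 617 and 831 CPM in the selected cells and at 671 and 897 CPM in mural cells. Foxc1 lay between these, with 292 and 218 CPM in the selected cells and 61.7 and 103 CPM in mural cells.

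**Figure D2:**
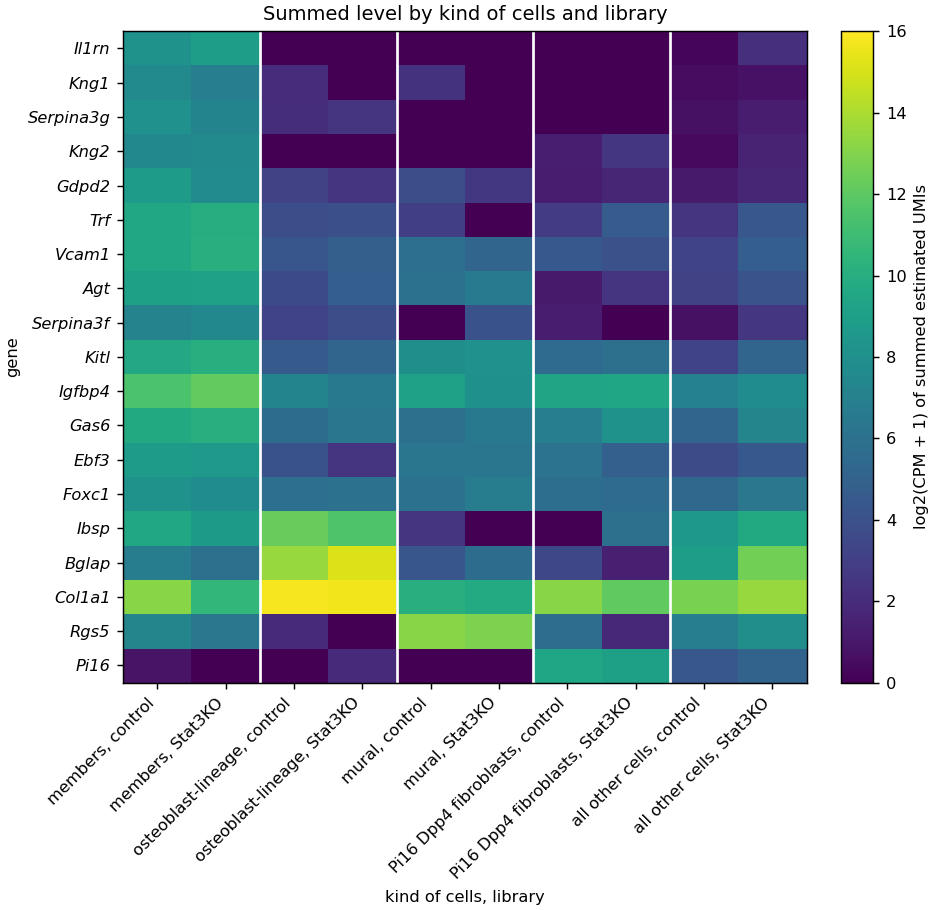
Summed expression of 19 genes (rows) in the selected cells (members), 3 other kinds of mesenchymal cells and all other cells of each library (columns), as log2(CPM + 1) by colour. Il1rn, Trf, Vcam1 and Kitl are brightest in the selected cells, Col1a1, Ibsp and Bglap in osteoblast-lineage cells, Rgs5 in mural cells and Pi16 in the Pi16 Dpp4 fibroblasts.

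The sequences before the start sites of 4 of these genes are printed because they are the proximal promoters of 2 selecting genes and of 2 enriched genes in which a searched motif was found. Each is the 250 bases upstream of the RefSeq start on GRCm38.p6, 5′ to 3′ on the gene's strand. Adipoq lies at chr16:23146286-23146535 (plus strand), Cxcl12 at chr6:117168285-117168534 (plus), Gdpd2 at chrX:100729597-100729846 (plus) and Agt at chr8:124569707-124569956 (minus). These windows overlap no annotated exon. Capitals mark matches to the letters searched.
Adipoq: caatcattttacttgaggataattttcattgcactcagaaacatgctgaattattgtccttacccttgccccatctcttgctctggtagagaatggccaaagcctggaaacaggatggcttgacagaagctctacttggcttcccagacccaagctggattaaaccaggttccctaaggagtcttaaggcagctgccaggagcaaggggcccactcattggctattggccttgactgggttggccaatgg
Cxcl12: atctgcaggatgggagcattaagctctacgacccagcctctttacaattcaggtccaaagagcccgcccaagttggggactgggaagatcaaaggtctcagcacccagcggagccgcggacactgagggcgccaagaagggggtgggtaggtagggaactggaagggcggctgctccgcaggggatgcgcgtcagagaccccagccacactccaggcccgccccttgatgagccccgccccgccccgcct
Gdpd2: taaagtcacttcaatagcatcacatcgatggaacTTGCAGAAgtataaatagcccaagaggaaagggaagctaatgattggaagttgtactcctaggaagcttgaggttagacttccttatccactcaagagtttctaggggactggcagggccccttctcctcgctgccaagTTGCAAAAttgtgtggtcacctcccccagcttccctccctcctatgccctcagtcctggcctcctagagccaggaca
Agt: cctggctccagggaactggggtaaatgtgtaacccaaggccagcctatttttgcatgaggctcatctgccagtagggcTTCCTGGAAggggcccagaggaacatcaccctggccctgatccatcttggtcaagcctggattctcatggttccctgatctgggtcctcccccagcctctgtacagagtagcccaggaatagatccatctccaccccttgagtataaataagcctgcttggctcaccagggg

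The letters searched, on both strands, were TTGCNNAA for C/EBP factors, TTCNNNGAA for STAT factors and TCCCNNGGGA for EBF factors. The printed Gdpd2 window held the C/EBP letters 216 to 209 and 77 to 70 bases before the start, while a window at another RefSeq start of Gdpd2, which overlaps an exon and is not printed, held none, and the Agt window held the STAT letters 172 to 164 bases before it. Windows were found for 20 of the 31 selecting and other marrow stromal genes, 30 windows in all. The C/EBP letters were in 5 of the 30 (16.7%) and in 9.56% of 32851 windows genome-wide, the STAT letters in 3 (10.0%) and 7.02%, and the EBF letters in 0 and 0.779%. A match of letters is not a binding site, and a missing match says only that these letters are not in this window.

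Between the genotypes, 3437 genes passed a filter on low values in the selected cells, a mean of 50 CPM and detection in 10% of cells of either library. Of these, 203 (5.91%) were at least 2-fold higher and 237 (6.90%) at least 2-fold lower in Stat3KO, and the median log2 ratio of all tested genes was -0.03. The same 3437 genes had a median of 0.09 in all other cells. The shares of 5.91% higher and 6.90% lower are the background for the list counts below. A gene far below the filter mean in 1 library passed only through the other, so it could be called in 1 direction only. That holds for the background as for the lists. Among the named or listed genes called, 12 fell below 2-fold when cells with globin were left out. Beside 3 globin genes these were Acta2 (0.01), Atf3 (0.52), Wnt4 (0.56), Pim1 (0.69), Gdpd2 (-0.70), Bmp2 (0.75), Igfbp7 (0.75), Mgp (0.80) and Igfbp5 (-0.97). Stat3 itself stood at 156 CPM in control and 159 CPM in Stat3KO cells (log2 ratio 0.03). The 3′ tags may lie outside the deleted part of the gene, and the Cre is driven in chondrocytes, so this value checks nothing about the deletion. Acan, the gene that drives the Cre, was at 309.6 and 71.7 CPM in the selected cells and was detected in 20.6% and 7.69% of them.

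**Figure D3:**
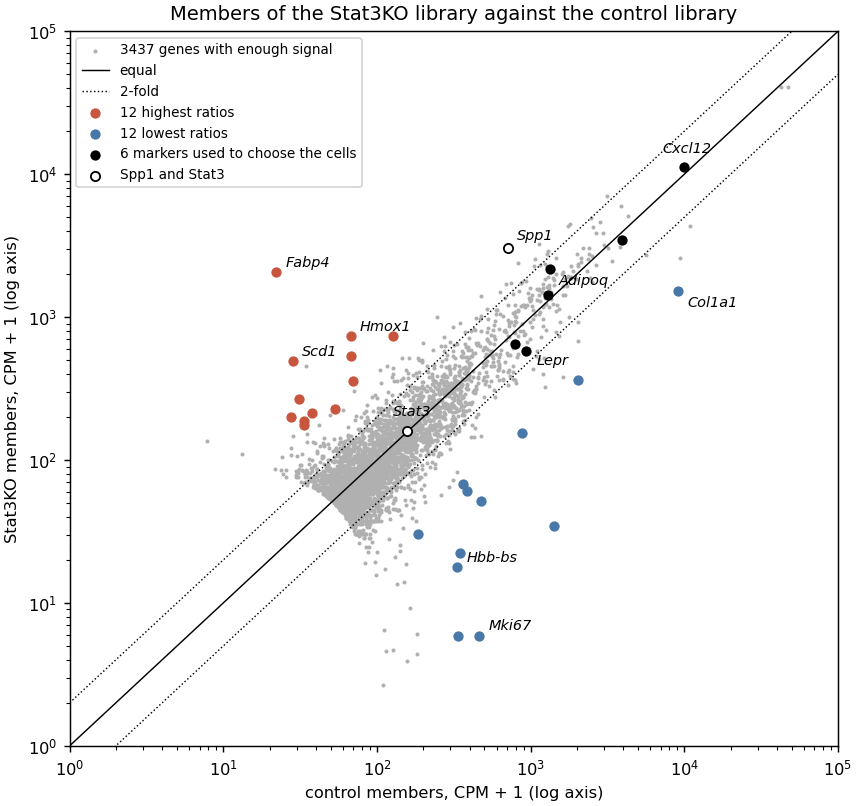
CPM + 1 in the selected cells of Stat3KO (vertical log axis) against control (horizontal log axis), with 1 point per tested gene (n = 3437), a solid line at equal levels and dotted lines at 2-fold. Most genes, the 6 selecting genes (black) and Stat3 lie between the dotted lines, Fabp4, Scd1 and Hmox1 lie far above them and Mki67, Hbb-bs and Col1a1 far below.

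The identity genes differed little between the genotypes. Of the 23 other marrow stromal genes tested, none was called higher and 1 was called lower, with a median log2 ratio of 0.09. Gdpd2 was the lower one, at 455 CPM in control and 207 CPM in Stat3KO (log2 ratio -1.13). It was detected in 63.2% of control and 60.4% of Stat3KO cells, or 59.7% and 41.8% after thinning to 2000 UMIs. Leaving out cells with globin took its log2 ratio to -0.70, below 2-fold. Igfbp4, a carrier of insulin-like growth factors, was at 2841 and 4627 CPM (0.70), and Gas6, a ligand of the TAM receptors, at 831 and 1100 CPM (0.40). Ebf3 (-0.26), Ebf1 (0.43) and Foxc1 (-0.42) were all within 2-fold. In all other cells of the libraries the same list had a median log2 ratio of 1.14, from much lower levels.

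Factors of the blood niche were mostly within 2-fold too. Of 17 such genes 13 were tested, 2 were called higher and 1 lower, and the median was 0.03. Kitl had a log2 ratio of 0.43. The B-cell growth factor Il7 had 98.9 and 101 CPM (0.03), Csf1, the growth factor of macrophages, 377 and 406 CPM (0.11), and Angpt1, a ligand of the Tie2 receptor, 299 and 294 CPM (-0.03). Spp1 (osteopontin, a phosphoprotein of bone) was at 712 CPM in control and 3062 CPM in Stat3KO (2.10), and was detected in 29% and 67% of cells. In osteoblast-lineage cells it stood at 6253 and 7213 CPM, and in all other cells together at 398 and 2009 CPM. Il34, another ligand of the Csf1 receptor, was at 24.8 and 75.3 CPM (1.57), and Ptn (pleiotrophin) at 294 and 64.2 CPM (-2.18). The 3 highest cells held 83% of the Ptn reads in Stat3KO, and its log2 ratio without the 3 highest cells of each library was -3.88.

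Some genes of fat formation were higher in Stat3KO. Of 25 listed adipogenic and lipid genes 9 passed the filter, 5 were called higher and none lower. Among the 5, Fabp4 and Scd1 (21.1 and 27.3 CPM in control) passed only through their Stat3KO level. They could therefore be called only higher. The median of the 9 genes was 1.04. The median of the same genes in all other cells was 1.49. It was 0.86 in osteoblast-lineage cells, 0.87 in mural cells and 0.82 in Pi16 Dpp4 fibroblasts, so the list as a whole was higher there too. Fabp4, a fatty acid carrier of adipocytes, had 21.1 CPM in control and 2062 CPM in Stat3KO cells (6.54). Transcripts of Fabp4 were present in 8 of 155 control cells (5.16%, interval 2.25 to 9.92%) and in 22 of 91 Stat3KO cells (24.2%, interval 15.8 to 34.3%). These intervals cover counting error only, and the difference was not tested. In the 119 control and 79 Stat3KO cells with at least 2000 UMIs, thinned to that number, the shares were 4.20% and 17.7%. In osteoblast-lineage cells the share was 0 of 181 in the control and 0.840% in Stat3KO, at median depths of 4628 and 8274 UMIs, which are deeper than the selected cells. In Pi16 Dpp4 fibroblasts it was 0 in both. Mural cells had 917 and 1920 CPM of Fabp4.

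A few cells carried most of the Fabp4 reads. The 3 highest Stat3KO cells held 71.8% of them, at 66445, 15513 and 13529 CPM, while the highest control cell had 1759 CPM. The highest Stat3KO cell had 0.102% mitochondrial counts, 901 CPM of Adipoq, 747 CPM of Cxcl12 and no Lepr, and differed in this from the second, which had 716 CPM of Adipoq, 716 CPM of Lepr and 10741 CPM of Cxcl12. The log2 ratio of Fabp4 was 5.80 or higher under each alternative, leaving out the 3 highest cells among them. Scd1, which desaturates fatty acids, had 27.3 and 492 CPM (4.12), and its 3 highest Stat3KO cells held 71% of the reads. Plin1, which coats lipid droplets, had 6.74 and 117 CPM and did not pass the filter. Cfd, the adipocyte protease adipsin, was listed at 0 in the control cells, which allows up to 1.94% of them to hold a UMI and says nothing of cells that express it without one, and was at 248 CPM in Stat3KO, with 3 cells holding 98.5% of its reads. Of the 5 genes Fabp4, Plin1, Cfd, Scd1 and Cidec, 2 or more were detected in 3 of the 155 control cells and in 15 of the 91 Stat3KO cells, and 4 Stat3KO cells had 4 or 5 of them.

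The transcription factors of fat formation were spread over more cells. Cebpa was at 101 CPM in control and 217 CPM in Stat3KO (1.10), and was detected in 29.7% and 58.2% of cells, or 17.6% and 34.2% after thinning to 2000 UMIs. Pparg was at 86.8 and 179.9 CPM (1.04), detected in 25.8% and 46.2%. With each cell weighted equally their log2 ratios were 0.82 and 0.48, both below 2-fold, and after thinning to 2000 UMIs the share of cells with Pparg was 18.5% and 22.8%. Cebpb was at 114 and 457 CPM (1.99) and was also higher in the other cells of Stat3KO (17.8 and 208 CPM, log2 ratio 3.48). Apoe, a lipid carrier, had 2641 and 3889 CPM (0.56). Fabp5, a fatty acid carrier of many tissues, had 52 and 228 CPM (2.11), with a log2 ratio of -0.10 in the other cells.

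**Figure D4:**
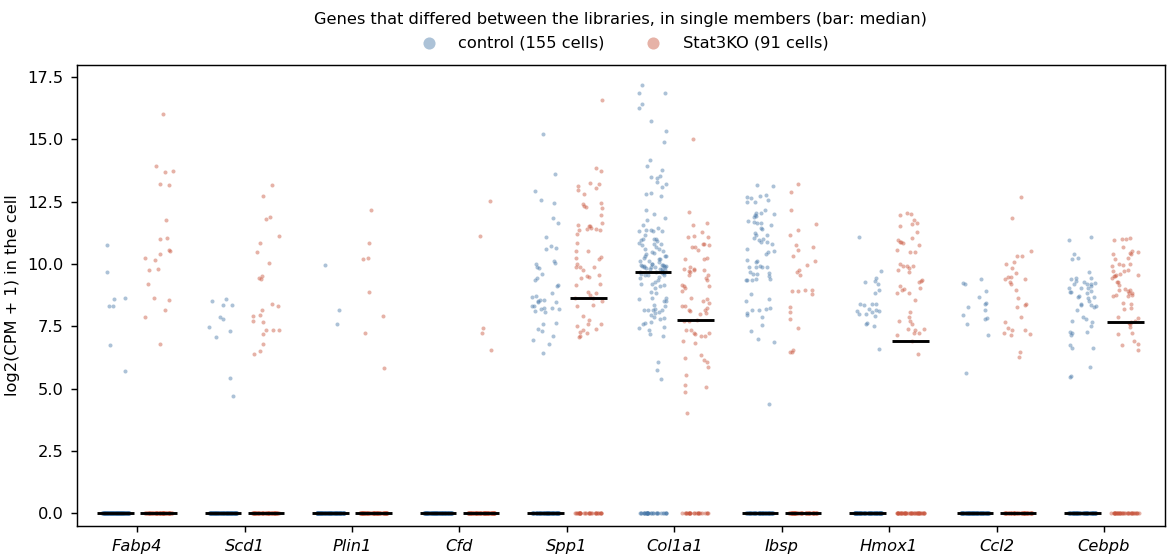
Expression of 10 genes in single selected cells, as log2(CPM + 1) on the vertical axis, with 1 point per cell, control (blue, n = 155) beside Stat3KO (red, n = 91) and a bar at the median. Fabp4 is above 0 in 8 control and 22 Stat3KO cells, so its median is 0 in both, while the median of Col1a1 is lower in Stat3KO and those of Spp1, Hmox1 and Cebpb lie above 0 only there.

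Genes of bone and matrix were lower in Stat3KO. Of 17 osteogenic genes tested, 5 were called lower and 1 (Spp1) higher, with a median of -0.74, while all other cells had a median of 0.75. The list median was -0.21 in osteoblast-lineage cells, -0.19 in mural cells and -0.79 in Pi16 Dpp4 fibroblasts. Col1a1, the main collagen chain of bone, was at 9132 CPM in control and 1520 CPM in Stat3KO (-2.59), and Col1a2 at 9340 and 2589 CPM (-1.85). Sparc, a collagen-binding protein, was at 10842 and 4336 CPM (-1.32). It was below 2-fold with at least 4 selecting genes (-0.82) or with Adipoq required (-0.86). The matricellular gene Tnc was at 1532 and 736 CPM (-1.06), and Postn at 290.6 and 134 CPM (-1.11). Runx2 was at 208 and 124 CPM and was within 2-fold under each alternative (-0.93 to -0.70), and Sp7 was at 25.4 and 17.9 CPM, below the filter. The phosphatase Alpl was at 486 and 361 CPM (-0.43) and passed 2-fold without globin cells (-1.19). Ibsp (bone sialoprotein, a matrix protein) was at 764 and 412 CPM (-0.89), and was at least 2-fold lower under 7 of 12 alternatives, with a range from -3.14 to -0.43. In osteoblast-lineage cells, for whose choice Col1a1 was used, it had 56218 and 52450 CPM, a log2 ratio of -0.10.

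The collagen levels differed widely among the selected cells. The 3 highest cells held 40.5% of Col1a1 in the control and 71.4% in Stat3KO, and without them the log2 ratio was -3.57. The median cell had 819 CPM in control and 217 CPM in Stat3KO. In cells with Lepr but no Adipoq, Col1a1 was at 23943 CPM (29 control cells) and 7287 CPM (16 Stat3KO cells). In cells with both genes it was at 4418 CPM (113 cells) and 437 CPM (64 cells). The osteoblast rule was also met by 29 of the control (18.7%) and 18 of the Stat3KO cells (19.8%). When all cells that also met the rule of another kind were left out, the log2 ratio of Col1a1 was -4.36.

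Of 27 matrix and basement membrane genes tested, 12 were called lower and 1 higher, with a median of -0.80, against 0.61 in all other cells. The median of the same genes was also below 0 in osteoblast-lineage cells (-0.63), mural cells (-0.35) and Pi16 Dpp4 fibroblasts (-0.52). Col3a1 (2045 and 922 CPM, -1.15), Col6a2 (1201 and 400.3 CPM, -1.58) and the proteoglycan Dcn (1611 and 379 CPM, -2.08) were among the lower ones. In both libraries Dcn was highest in the Lepr cells without Adipoq, at 5065 and 832 CPM. Among cells with at least 4 of the 6 selecting genes its log2 ratio was -0.39. Mgp, an inhibitor of calcification, was the higher one at 741 and 1719 CPM (1.21), and Fn1 (fibronectin) was at 682 and 1354 CPM (0.99), but 3 Stat3KO cells held 62.1% of the Mgp and 78.6% of the Fn1 reads. The basement membrane chains Col4a1 (1036 and 1127 CPM, 0.12) and Nid1 (275 and 301 CPM, 0.13) were close to equal.

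Chondrocyte transcripts moved with these differences. Of 7 chondrocyte markers tested, 5 were lower in Stat3KO and none was higher, and their sum over 10 markers was 3539 CPM in control and 988 CPM in Stat3KO cells. Col2a1, the collagen of cartilage, was at 2029 and 359 CPM, with 67.8% and 84.1% of it in 3 cells, against 10257 and 14744 CPM in all other cells. Sox9, which directs cartilage formation, was at 103 and 106.5 CPM (0.05). Sox9 and Col2a1 were both above 0 in 11 and 9 of the selected cells. Comp (472 and 50.3 CPM) and Fmod (884 and 152 CPM), proteins of cartilage and tendon matrix, were among the 12 lowest log2 ratios, at -3.21 and -2.53. The part of chondrocyte RNA or of doublets in these values was not tested.

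Proliferation and red cell genes were also lower. Of 16 cell cycle genes only 3 passed the filter. Mki67, a nuclear protein of dividing cells, was at 462 CPM in control and 4.91 CPM in Stat3KO, which rests on 272 and 3 estimated UMIs. The control level was 83.7 times the Stat3KO level (28.3 to 408, exact interval from the UMI counts, counting error only). Top2a, which untangles DNA, was at 153 and 17.7 CPM (-3.04), and Pcna, the replication clamp, at 57.1 and 83.8 CPM (0.55). Mki67 was higher in all other control cells than in the selected ones (1799 CPM) and also lower in the Stat3KO remainder (87.6 CPM). Without globin cells its log2 ratio was -4.29. Car2, a carbonic anhydrase of red cells and osteoclasts, was at 335 and 4.87 CPM, on 197 and 3 estimated UMIs, and the ratio was 60.6 (20.4 to 296). Of 5 erythroid markers 3 were tested and all 3 were lower. The 5 summed to 707 CPM in control and 29.3 CPM in Stat3KO cells, and Hbb-bs, a beta globin, was at 332 and 16.8 CPM. Globin reads can be split between near-identical copies, as can those of the histone genes Hist1h2ap (1416 and 33.7 CPM) and Hist1h2ae (346 and 21.2 CPM).

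Leukocyte markers and most endothelial markers were near 0. The 13 leukocyte markers summed to 9.58 and 15.3 CPM, and 8 of them were at 0 in both libraries. The 8 endothelial markers summed to 11.8 and 69.1 CPM, nearly all from Pecam1 (7.74 and 63.6 CPM), the gene of the CD31 used in the sort. Pecam1 was detected in 3.23% and 18.7% of the selected cells. Cdh5, the cadherin of endothelial junctions, was listed at 0 in both, which allows up to 1.94% and 3.30% of cells with a UMI but is no limit on cells that express it. Of the mural markers, 2 of 8 passed the filter, and Acta2 (smooth muscle actin) was higher at 95.4 and 286 CPM (1.58), but not without globin cells (0.01) or among cells with at most 5% mitochondrial counts (0.77), against 3568 and 4783 CPM in mural cells. Prg4, the lubricin of the joint lining, was the only fibroblast and tendon marker of 10 that passed. It was at 829 and 2397 CPM (1.53), but 3 cells held 98.5% of its reads in Stat3KO, and without the 3 highest cells of each library the log2 ratio was -2.51. Of 6 Schwann cell markers 1 passed the filter, and none was called.

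Chemokines were higher in Stat3KO. Of 16 listed, 5 passed the filter and 4 were called higher, with a median of 2.03. Ccl2, which draws monocytes, was at 30.3 and 264 CPM (3.09) and was detected in 9.68% and 33% of cells. Cxcl1, which draws neutrophils, was at 69.5 and 303 CPM (2.11), and the interferon-induced chemokines Cxcl9 and Cxcl10 at 145 and 514 CPM (1.82) and 103 and 424 CPM (2.03). For Cxcl9 and Cxcl10 the 3 highest Stat3KO cells held 60.4% and 55.9% of the reads. Cxcl14, a chemokine of many stromal cells, was already at 1244 CPM in the control and stood at 2342 CPM in Stat3KO (0.91). The same 5 genes had a median of 3.86 in all other cells, 2.12 in osteoblast-lineage cells, 2.83 in Pi16 Dpp4 fibroblasts and 0.19 in mural cells. The direction was therefore shared by cells outside the selection, though only weakly by mural cells.

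Some interferon and antigen presentation genes were also higher. Of 20 listed genes 11 were tested, 5 were called higher and 1 lower, and the median was 0.85, against 0.99 in all other cells. Thinning took all 5 higher genes below 2-fold, namely Bst2 (0.62), Psmb8 (0.64), Irf1 (0.75), H2-D1 (0.82) and Iigp1 (0.86). Weighting each cell equally took Iigp1, H2-D1 and Psmb8 to 0.57, 0.92 and 0.96. Requiring at least 4 selecting genes took Iigp1, Irf1 and H2-D1 to 0.90, 0.91 and 0.96. Without the 3 highest cells of each library Iigp1 was at 0.69. H2-D1, a heavy chain of MHC class I, was at 1057 and 2261 CPM (1.10), and H2-K1 at 839 and 1518 CPM (0.85), although reads of the 2 genes can be confused. B2m, the light chain, was at 1013 and 1419 CPM (0.49). Iigp1 (187 and 409.5 CPM), Bst2 (128 and 354 CPM), the transcription factor Irf1 (125 and 286 CPM) and the proteasome subunit Psmb8 (82.9 and 185 CPM) were the others above 2-fold. Ly6e was lower at 195 and 91.4 CPM (-1.08). In both libraries 10 of the 11 genes were at least 2-fold above all other cells, against 13.5% of all genes compared, and the exception was Ly6e. At least 2-fold above each of the 3 other kinds of mesenchymal cells were 7 of the 11, against 3.91% of all genes.

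Genes around gp130 and STAT signalling did not share 1 direction. The receptor subunit Il6st (gp130) was at 221 and 143 CPM (-0.62), and its partner Lifr at 499 and 277 CPM (-0.85). Of 29 listed genes 8 were tested, and Socs2, an inhibitor of cytokine signalling, was the only one called, at 131 and 60.5 CPM (-1.11). Socs3, a feedback inhibitor induced by STAT3, was at 154 and 191 CPM (0.31). Among 12 tested of 22 genes known as STAT3 targets in other cells, 3 were called higher (Pim1, Cebpb and Timp1) and none lower, with a median of 0.71 against 1.41 in all other cells. Pim1, a survival kinase, was at 163 and 329 CPM (1.01), while Timp1, an inhibitor of metalloproteases, was at 34.3 and 133 CPM with 79.8% of the Stat3KO reads in 3 cells. Of 21 immediate-early and heat shock genes, which respond to tissue dissociation, 2 were called higher, Atf3 (373 and 781 CPM) and Ier3 (139 and 288 CPM), and the median was 0.27. Of 13 mitochondrially encoded genes 2 were higher, mt-Cytb (1804 and 4458 CPM) and mt-Atp6 (3158 and 7088 CPM), with a median of 0.47.

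Secreted plasma and growth factor proteins made up the remaining lists. Of 11 acute-phase and complement genes tested none was called higher, and the list had a median of -0.51 against 1.66 in all other cells. The list median was -0.29 in osteoblast-lineage cells, 0 in mural cells and 1.06 in Pi16 Dpp4 fibroblasts. C3, the central complement protein, was lower at 129 and 19.9 CPM (-2.64), with 91.3% of the Stat3KO reads of C3 in 3 cells. With each alternative in turn, the log2 ratio of C3 stayed at -1.68 or lower. Of 12 genes of the IGF axis 3 were lower and 1 higher. Igfbp5, which binds insulin-like growth factors, was at 5648 and 2716 CPM (-1.06) and its median cell at 6212 and 1450 CPM, whereas Igfbp7 was at 875 and 1766 CPM (1.01). Igf1 itself was at 765 and 455 CPM (-0.75).

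Of 13 BMP and Wnt ligands and antagonists, 3 were called higher and 1 lower, with a median of -0.37. Fst (follistatin, which binds activin) was at 161 and 516 CPM (1.68) and was detected in 34.2% and 69.2% of cells. Wnt4 was at 58.8 and 125 CPM (1.07) and Bmp2 at 29.5 and 82.5 CPM (1.45), while Dkk3 was at 98.1 and 14.6 CPM (-2.66). Grem1, a BMP antagonist, was at 309 and 173 CPM (-0.84). Of the regulators of osteoclasts, the cells that resorb bone, Tnfsf11 (RANKL) was at 131 and 75.2 CPM (-0.79) and was 51.6-fold and 7.79-fold above the other cells. Il34 was the only one of 3 tested that was called.

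Among all tested genes with at least 100 CPM on average, those with the highest log2 ratios were Fabp4, Scd1, Hmox1, Ccl2, Tagln, Pim3, Rgcc, G0s2, Gm8251, 1810037I17Rik, Cd9 and Fabp5. Hmox1, which breaks down haem, was at 66.4 and 736 CPM (3.45) and was detected in 15.5% and 51.6% of cells. Cd9, a tetraspanin, was at 68.8 and 357 CPM (2.36), and its log2 ratio in all other cells was 2.92. Pim3, a kinase related to Pim1, was detected in 7.74% and 52.7% of cells (log2 ratio 2.87), and Rgcc, a regulator of the cell cycle, at 125 and 742 CPM (2.55). G0s2, an inhibitor of fat breakdown, was at 36.8 and 211 CPM (2.49) and only at 3.4 and 13.7 CPM in the other cells. Tagln, an actin-binding protein of smooth muscle, was at 66.7 and 534 CPM (2.98), against 2714 and 3718 CPM in mural cells. At the other end, beside genes given above, lay Ecrg4 (387 and 59.9 CPM, -2.67), Igsf10 (183 and 29.3 CPM, -2.61) and the noncoding RNA Meg3 (363 and 67 CPM, -2.42).

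**Figure D5:**
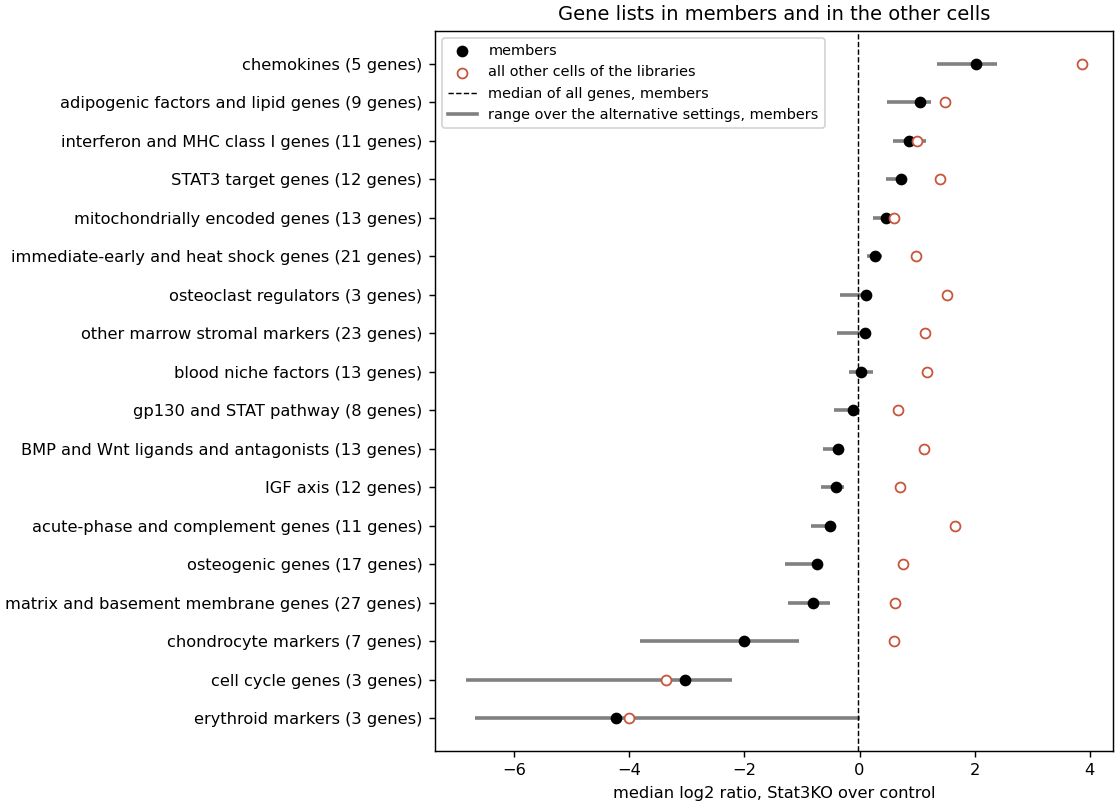
Median log2 ratio of Stat3KO over control (horizontal axis) for 18 gene lists in the selected cells (black) and in all other cells of the libraries (open circles), with 1 row per list, grey bars for the range over the alternatives and a dashed line at the median of all genes. The osteogenic and acute-phase lists lie below 0 in the selected cells (-0.74 and -0.51) and above 0 in the other cells (0.75 and 1.66), while chemokines lie above 0 in both. Medians in the 3 other kinds of mesenchymal cells are not drawn. They were -0.79 to -0.19 for the osteogenic and -0.29 to 1.06 for the acute-phase list.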

How the data were processed

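Single-cell libraries (10x 3′ v3.1) of sorted knee cells were analysed, 1 per genotype. The authors used Partek Flow, with alignment by STAR 2.7.3a to mm10, Gencode counting and removal of ambient RNA with SoupX, per the labels and the study's methods. In each of the deposited tables, 32245 gene columns hold log2(CPM + 1) for every cell. The total of a cell is deposited as an estimated count, no longer whole once ambient RNA was subtracted. The authors also gave mitochondrial and ribosomal shares in percent, and the deposited number of expressed genes is a score per cell. A deposited text column marks cells that the authors selected.

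Estimated UMIs were recovered from each value and the cell's total, summed over the cells named and divided by their sum. A pseudocount of 1 CPM was used. Between the genotypes, genes were tested at a mean of 50 CPM and detection in 10% of the cells of either library. For enrichment over other cells, 50 CPM and 10% of the selected cells were required in both libraries. As values are not whole and each group is 1 library, no count model or test was used. Cells of the 3 comparison kinds were chosen by marker rules and exclude the selected cells. The members and all 24 gene lists were chosen with earlier results of these data known, and list counts support no claim of independence. Genes named were the 6 selecting genes, Stat3, list members with the highest levels or past 2-fold, the 12 highest and 12 lowest log2 ratios (mean of at least 100 CPM, 20% of cells in either library) and the 15 most enriched genes (at least 100 CPM and 20% of cells in both). Other genes (Plin1, Cfd, Fabp5 in the lipid account, Pecam1, Cdh5) were chosen after their values were seen. 1 gene that met these rules is not reported here.

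Clusters were made with Leiden (scanpy 1.11.5, python-igraph 0.11.9) on 2000 variable genes without the 6 selecting genes, 30 components, 15 neighbours and resolution 1. Scrublet was run at an expected rate of 0.05. Histone, globin and MHC reads may be split between copies. Promoter windows are RefSeq on GRCm38.p6, and exon overlap was checked on Gencode M21, which is another release than the authors used. On simulated data for this comparison (3564 genes, 200 changed 2-fold), 100% were found in the right direction, 97% within 0.5 on the log2 scale, and 4 of 3364 unchanged genes were called. The simulated counts were Poisson draws from 1 profile of the control cells, with no variation among cells or between libraries. They check the calculation only and give no error rate for the measured genes, some of which rest on few cells. Scripts used Python 3.11.15, numpy 2.4.6, scipy 1.17.1 and pandas 2.3.3. Alternatives changed the weighting, scaling, pseudocount, filter, depth, cell filters and the rule. Thinning left out cells below the chosen depth, which at 2000 UMIs were 36 of 155 control and 12 of 91 Stat3KO selected cells.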

Additional observations from a re-analysis of the deposited data

Results flagged for a closer look

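Some genes had log2 ratios of Stat3KO over control that were past 2-fold in 1 direction in the selected cells and past 2-fold in the other direction in the cells they were compared with. With 1 library per genotype these differences were not tested. The median over all tested genes was -0.03 in the selected cells, 0.09 in all other cells, -0.05 in mural cells and -0.05 in Pi16 Dpp4 fibroblasts. Against all other cells of the libraries these were C3 (-2.64 in the selected cells, 1.72 in the others), Dcn (-2.08 and 1.36), Ecrg4 (-2.67 and 1.15), Igfbp6 (-2.26 and 1.20) and Lum (-1.07 and 1.45). In the selected cells the values of 3 of these depended on the rule. Among cells with at least 4 of the 6 selecting genes they were -0.17 for Igfbp6, -0.39 for Lum and -0.39 for Dcn, all below 2-fold. All other cells are a mixture whose make-up differed between the libraries. In it the 5 erythroid markers summed to 5262 CPM in control and 305 CPM in Stat3KO. A ratio in this mixture cannot be told apart from a difference in its make-up.

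Against Pi16 Dpp4 fibroblasts, Comp stood at -3.21 and 1.43, Tnc at -1.06 and 1.44, Cxcl10 at 2.03 and -1.50, and Prg4 at 1.53 and -2.38. Against mural cells, Prg4 stood at 1.53 and -6.00 and Spp1 at 2.10 and -4.51. These differences were not tested either, and the value of Prg4 rests on 3 cells.

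A text column that none of the comparisons uses marks cells selected by the authors. It marked 9 of 91 Stat3KO cells (9.89%, 4.62 to 17.9%) and 6 of 155 control cells (3.87%, 1.43 to 8.23%) among the selected cells. The intervals overlap, and the difference was not tested.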

How the results depend on the processing

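No paired analysis was possible because each genotype is 1 library. Leaving out cells with globin took the difference in the share of selected cells to 1.89 percentage points; it ranged from 3.03 to 3.84 under the other alternatives. The 203 higher and 237 lower genes became 2382 and 3944 with no filter on low values (15761 genes tested) and 110 and 89 with a filter of 100 CPM and 20% of cells (1681 tested), and thinning to 2000 UMIs gave 375 lower genes. Thinning took the median log2 ratio of chemokines to 1.35, of cell cycle genes to -6.84, of chondrocyte markers to -1.04 and of erythroid markers to -6.67. Weighting each cell equally took the adipogenic median to 0.48 and that of chemokines to 1.53. Leaving out cells of a second kind took the osteogenic median to -1.29 and that of cell cycle genes to -4.33. Without globin cells the cell cycle median was -2.21 and the erythroid median 0. Without called doublets the chondrocyte median was -3.81 and the erythroid median -3.41. Requiring at least 4 of the 6 selecting genes took chemokines to 1.49, and a pseudocount of 10 took erythroid markers to -3.67. An alternative chosen after seeing the data left out the 3 highest cells of each gene. It took chondrocyte markers to -2.72 and erythroid markers to -6.35, and turned Prg4 to -2.51. The cause was not tested. Of 78 called genes among 216 named or listed ones, 45 were called in the same direction under each alternative and Prg4 alone changed sign. Each library is a pool of mice, so no value has a replicate error, and genes under 50 CPM are below what this depth describes.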
